A study of Mus musculus with 12 samples.

Results

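Carboxylesterases are serine hydrolases that cleave ester and amide bonds in drugs, xenobiotics and lipids. The liver expresses more of them than most tissues, largely in hepatocytes. Most carry a signal that places them in the lumen of the endoplasmic reticulum, where several act on triglycerides, cholesteryl esters or diglycerides on the route to lipoprotein secretion or fat oxidation, and others leave the cell for the plasma. In the mouse they fall into classes that arose by tandem duplication, and the 10 genes described here are Ces1b, Ces1c, Ces1d, Ces1e, Ces1f and Ces1g of class Ces1, Ces2a and Ces2e of class Ces2, and Ces3a and Ces3b of class Ces3. They were taken by symbol from a table of 54532 genes that holds 20 genes of the Ces family, and each of the 10 passed the filter on low values that left 11083 genes for testing. The genes were chosen with their levels in these mice known, so the levels of the 10 genes and the differences between their groups are given as descriptions without p-values. The 10 are also those with the highest mean level in the family over the 12 mice, the lowest of them being Ces1b with 25.8 FPKM and the next gene outside them being Ces2c with 17.9 FPKM.

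Liver RNA was sequenced from 12 male C57BL/6J mice, 3 in each of 4 diet groups, which began their diets at 5 weeks of age and kept them for 26 weeks. ND-fed mice received a normal diet and control mice a high-fat diet. HYA-treated mice received the high-fat diet with 1% HYA, a hydroxylated fatty acid that gut bacteria make from linoleic acid, and LA-treated mice the high-fat diet with 1% linoleic acid itself. All 3 high-fat groups differ from ND-fed mice in the base diet. The unit is FPKM, the fragments of a gene scaled to its length and to the size of the library, with 17169064 to 25220880 fragments on genes per mouse. The 10 genes held from 524 fragments (the lowest for Ces1b) to 48694 (the highest for Ces1c) in a mouse.

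The genes lie on chromosome 8 (GRCm38) in 2 stretches. The 6 Ces1 members follow each other on the minus strand within 280.6 kb, from Ces1b at its low end to Ces1g at its high end (chr8:93056728-93337308). The 4 others follow each other on the plus strand within 359.9 kb, from Ces2a to Ces3b (chr8:104734003-105093929). The gene bodies of Ces3a (ENSMUSG00000069922, chr8:105048601-105058413) and Ces3b (ENSMUSG00000062181, chr8:105083753-105093929) are neighbours, as are those of Ces1b (ENSMUSG00000078964, chr8:93056728-93080017) and Ces1c (ENSMUSG00000057400, chr8:93099015-93131283). Ces2a (ENSMUSG00000055730, chr8:104734003-104741634) and Ces2e (ENSMUSG00000031886, chr8:104926260-104934672) are separated by Ces2b, Ces2c and the pseudogene Ces2d-ps. The gene body of Ces1d overlaps Gm45909 on the same strand (0.655 to 8.32 FPKM per mouse) and that of Ces3a overlaps Gm45724 on the opposite strand (1.49 to 3.31 FPKM), both far below their hosts. Of the windows of 100 bases in Ces2a transcripts, 8.13% occur letter for letter in Gm7208, and about 1% of those in Ces1b and Ces1c (1.29% and 1.03%) occur in the other.

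The RefSeq promoter table for GRCm38.p6 matched 7 of the 10 members, in 8 windows, since Ces1b has 2 annotated starts. Shown are the 250 bases before the start for 2 pairs of the same class, because Ces1b and Ces1c were the most alike in these letters and Ces2a and Ces2e had the most unlike diet patterns among the 10 genes. Capitals mark runs of 10 or more bases that both genes of a pair share letter for letter, and all sequences read 5′ to 3′ in the direction of the gene (Ces1b chr8:93079941-93080190 and Ces1c chr8:93131284-93131533, minus strand, Ces2a chr8:104733753-104734002 and Ces2e chr8:104926010-104926259, plus strand).
Ces1b: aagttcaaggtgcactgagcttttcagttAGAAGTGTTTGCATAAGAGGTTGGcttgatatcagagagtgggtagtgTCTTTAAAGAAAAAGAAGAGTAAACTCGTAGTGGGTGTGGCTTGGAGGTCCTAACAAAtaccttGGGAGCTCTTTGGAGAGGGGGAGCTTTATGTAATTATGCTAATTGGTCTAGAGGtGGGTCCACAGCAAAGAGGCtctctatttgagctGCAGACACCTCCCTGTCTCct
Ces1c: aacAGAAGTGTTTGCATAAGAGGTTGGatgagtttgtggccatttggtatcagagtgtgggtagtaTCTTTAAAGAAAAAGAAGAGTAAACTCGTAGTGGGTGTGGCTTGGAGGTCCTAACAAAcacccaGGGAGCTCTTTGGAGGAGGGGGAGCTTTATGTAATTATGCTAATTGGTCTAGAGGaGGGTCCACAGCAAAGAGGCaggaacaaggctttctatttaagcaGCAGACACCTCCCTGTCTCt
Ces2a: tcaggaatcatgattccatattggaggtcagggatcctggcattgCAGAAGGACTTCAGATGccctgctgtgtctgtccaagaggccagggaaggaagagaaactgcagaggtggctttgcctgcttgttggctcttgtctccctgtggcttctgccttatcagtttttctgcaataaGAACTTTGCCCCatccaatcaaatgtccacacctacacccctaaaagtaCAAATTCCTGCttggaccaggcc
Ces2e: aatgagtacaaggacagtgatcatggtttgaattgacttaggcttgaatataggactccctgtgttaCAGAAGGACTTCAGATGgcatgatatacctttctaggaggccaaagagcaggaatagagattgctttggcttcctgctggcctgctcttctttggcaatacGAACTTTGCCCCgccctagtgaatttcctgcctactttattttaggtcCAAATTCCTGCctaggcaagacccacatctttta
The longest run common to Ces1b and Ces1c had 58 bases, and such runs covered 69.6% of the Ces1b window and 70% of the Ces1c window. That run occurred in 3 of all 32851 mouse promoter windows, namely both windows of Ces1b and that of Ces1c. Ces2a and Ces2e shared a longest run of 17 bases, found in no other window, and runs covered 16% of each. The next closest pair among the members, Ces1e and Ces1g, shared at most 11 bases in a row.

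The promoter of Ces3b, the member with the widest difference between HYA-treated and control mice, is shown with motif letters in capitals (chr8:105083505-105083754, plus strand).
Ces3b: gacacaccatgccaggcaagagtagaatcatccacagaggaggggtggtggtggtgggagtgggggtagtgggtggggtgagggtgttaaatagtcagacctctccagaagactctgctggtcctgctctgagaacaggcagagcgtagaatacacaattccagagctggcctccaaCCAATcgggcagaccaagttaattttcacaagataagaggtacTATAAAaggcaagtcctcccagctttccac
It holds TATAAA, the letters of a TATA box, 30 bases before the start and CCAAT 73 bases before it. Over both strands, TATAAA was present in 2 of the 8 member windows, against 12.4% of all windows, and CCAAT in 5 of 8, against 33.8%. AGGTCA, the core letters bound by many nuclear receptors, occurred in the window of Ces2a and no other of the 8, against 14% of all windows. The STAT letters TTCNNNGAA were in 0 of the 8 windows, against 7.02% of all. These matches describe the letters of the windows, and binding of a factor was not measured.

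In ND-fed mice the most abundant carboxylesterase mRNA was Ces1c, which encodes an esterase secreted into mouse plasma, at 1148 ± 27.9 FPKM (SD, n = 3). Ces3a followed at 826.7 ± 68.4 FPKM and Ces1d, the triacylglycerol hydrolase of the hepatocyte endoplasmic reticulum, at 384 ± 31.2 FPKM. These 3 kept the first 3 places in all 4 groups, and in each group their ranges over the mice did not overlap with each other or with the gene below. Ces2a stood in the fourth place in ND-fed mice, at 225 FPKM, and in the ninth place in each of the 3 high-fat groups. Ces1b was the lowest of the 10 in every group. In the middle of the order several neighbours could not be separated by their ranges, for example Ces1e, Ces2e and Ces1g in ND-fed mice, at 131 ± 15.0, 121 ± 7.05 and 120.9 ± 4.40 FPKM. FPKM is scaled by gene length, so these are comparisons of level per length.

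The plot of levels by mouse shows each of the 10 genes on its own axis.

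**Figure D1:**
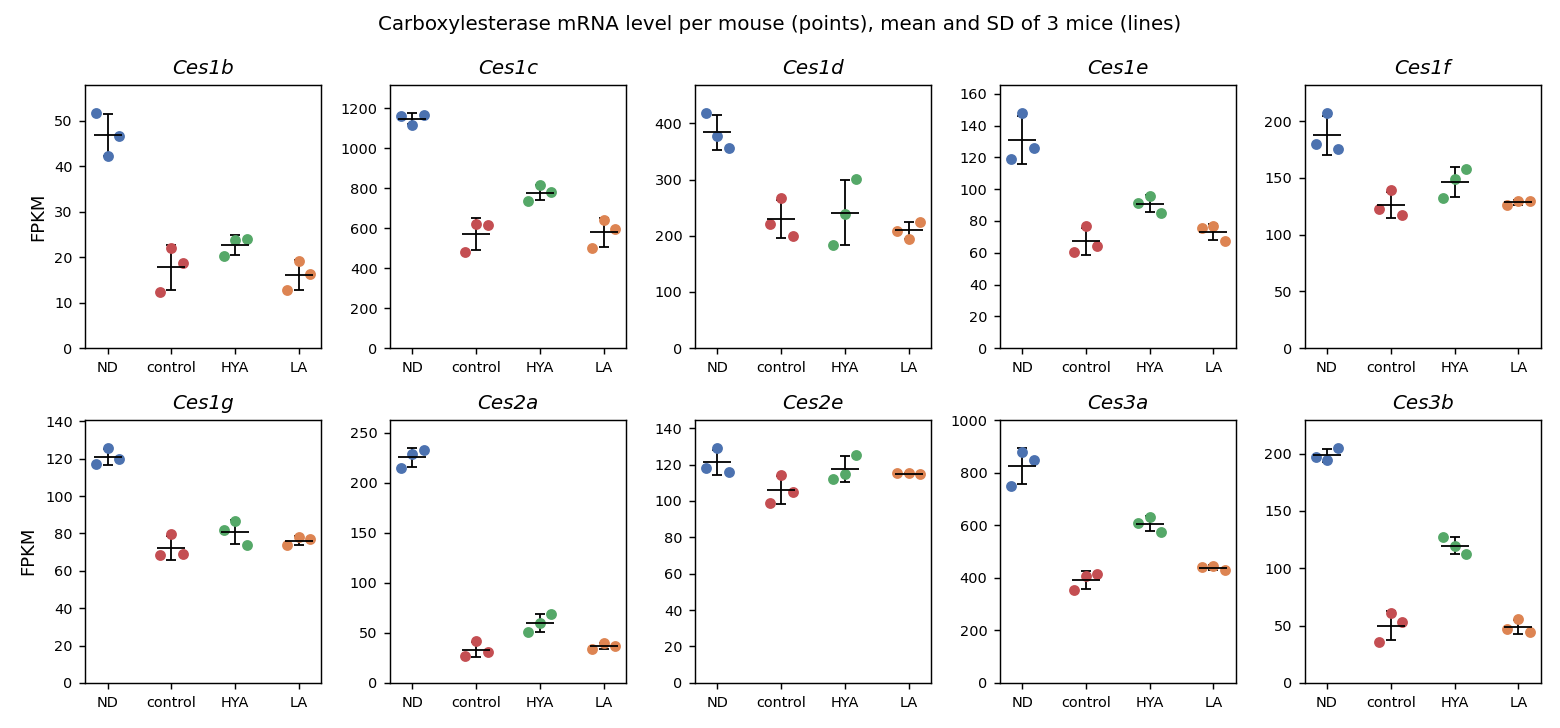
FPKM of each of the 10 carboxylesterase genes (vertical axes, from 0) in the 4 diet groups (horizontal axes); points are mice, lines the mean and SD of 3 mice. The ND-fed mice lie above the control mice for every gene, and HYA-treated mice lie above the control and LA-treated mice without overlap for Ces3b, Ces3a, Ces2a, Ces1c and Ces1e.

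The comparison of control with ND-fed mice gives the difference associated with the high-fat diet. All 10 mRNAs were lower in each control mouse than in each ND-fed mouse, and the size ran from a control level of 14.6% of the ND level for Ces2a to 87.5% for Ces2e. Ces2a, Ces3b, Ces1b, Ces3a and Ces1c were past the thresholds of the test across all genes, which were an adjusted p-value under 0.05 and a log2 fold change over 1 in size (limma with Benjamini-Hochberg adjustment over the 11083 genes). That is 5 of 10 members, where 1.63% of all tested genes were past them downwards. With the adjusted p-value alone it was 10 of 10, against 19.1% of all genes, and for ranges that did not overlap 10 of 10, against 25.7%. Nothing is read from these counts, since the members were chosen with this contrast known. The median log2 fold change of the 10 was -0.99, beside -0.04 over all genes tested. In bulk liver RNA, fewer hepatocytes and less RNA per hepatocyte cannot be told apart.

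Of the 10 members, Ces2a had the widest difference and Ces2e the smallest. Ces2a encodes an esterase of the class that includes the human drug-metabolising CES2. It had 215, 229 and 233 FPKM in the ND-fed mice and 27.0, 41.4 and 30.7 FPKM in the control mice. The log2 fold change was -2.76 ± 0.14 (SE), a level 6.76-fold lower on the scale of log2(FPKM + 1). Its relative Ces2e had 118, 129 and 116 FPKM in the ND-fed mice and 98.7, 114 and 105 FPKM in the control mice, with a log2 fold change of -0.19 ± 0.07. The ranges of Ces2e were adjacent, and its sign depended on the scaling (0.04 with values rescaled to TPM). The ratio of Ces2a to Ces2e within a mouse, which no scaling of the library can change, ran from 1.77 to 2.01 in ND-fed mice and from 0.273 to 0.361 in control mice.

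Both Ces3 genes, which are expressed mainly in liver, were lower in control mice. Ces3b had 197, 194 and 205 FPKM in the ND-fed mice and 35.9, 60.9 and 53.2 FPKM in the control mice, a log2 fold change of -2.00 ± 0.16. Ces3a had 749.6, 880.1 and 850.4 FPKM in the ND-fed mice and 352, 408.5 and 415 FPKM in the control mice, a log2 fold change of -1.08 ± 0.08. The Ces3b level in control mice was thus 25.2% of that in ND-fed mice and the Ces3a level 47.4%. The ratio of Ces3b to Ces3a within a mouse ran from 0.221 to 0.262 in ND-fed mice and from 0.102 to 0.149 in control mice, without overlap. The transcripts of the pair are alike in part, since 7.04% of the windows of 100 bases in Ces3b and 6.88% of those in Ces3a occur letter for letter in the other.

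Of the 6 Ces1 genes, Ces1b and Ces1c had the widest differences. Ces1b, whose gene lies beside Ces1c, had 51.7, 42.3 and 46.7 FPKM in the ND-fed mice and 12.4, 22.1 and 18.8 FPKM in the control mice. Ces1c had 1161, 1116 and 1166 FPKM in the ND-fed mice and 479, 620.4 and 615 FPKM in the control mice. The log2 fold changes were -1.38 ± 0.19 for Ces1b and -1.01 ± 0.11 for Ces1c. Ces1e, also called egasyn, which holds β-glucuronidase in the endoplasmic reticulum, was at 131 ± 15.0 FPKM in ND-fed and 67.1 ± 8.76 FPKM in control mice, a control level of 51.2%. Ces1g, an esterase known for its part in hepatic triglyceride and cholesterol handling, was at 59.9% and Ces1d at 59.6% of the ND level. Ces1f, like Ces1d an endoplasmic reticulum hydrolase, was at 67.3%.

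The library scaling moved the size of these differences. Rescaling each mouse to TPM shifted the median of all tested genes from -0.04 to 0.17 and that of the members from -0.99 to -0.75, so that the members stood 0.92 below the median gene in place of 0.94. Ces1c and Ces3a then had log2 fold changes of -0.78 and -0.84 and were no longer past the threshold on fold change, which left Ces2a, Ces3b and Ces1b. The share of higher genes among all genes past the thresholds was 57.9% with FPKM and 80.6% with TPM.

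The tissue showed its hepatocyte identity in every mouse. The 7 hepatocyte markers were Alb, Ttr, Apoa2, Fgb, Tat, Cps1 and Hnf4a. The summed level of 7 hepatocyte markers ran from 43610 to 45150 FPKM in ND-fed mice, from 29990 to 34200 in control mice, from 37500 to 39440 in HYA-treated mice and from 32370 to 34070 in LA-treated mice. In control against ND-fed mice 5 of the 7 passed the adjusted p-value, all lower, against 19.1% of all genes (limma with Benjamini-Hochberg adjustment). In HYA-treated against control mice 0 of 7 did, against 2.8% of all genes. Each of the 7 had a higher mean in HYA-treated mice. The ranges of Alb, Ttr and Apoa2 did not overlap, where 12.7% of all genes were higher without overlap. The sum of 6 hepatic stellate cell markers ran from 31.4 to 41.0 FPKM in the ND group, from 66.8 to 87.1 with the high-fat diet, from 54.4 to 66.8 with added HYA and from 71.2 to 85.4 with added LA. Markers of Kupffer cells and macrophages summed to between 155 and 230.3 FPKM in ND-fed and between 243.8 and 272 FPKM in control mice. Adipocyte markers summed to at most 0.182 FPKM in any mouse, and 4 of 5 pancreatic acinar markers were at 0 in every mouse. The acinar sum, from the marker left, ran from 6.62 to 11.3 FPKM in ND-fed and from 3.91 to 4.61 FPKM in control mice. The 4 enterocyte markers, of which 1 passed the filter on low values, summed to between 59.6 and 75.7 FPKM in ND-fed and between 156 and 183 FPKM in control mice. That sum came almost wholly from 1 gene, and whether it reflects enterocytes was not tested. The 5 markers of sinusoidal endothelium summed to between 40.2 and 49.4 FPKM in ND-fed and between 55.7 and 57.7 FPKM in control mice. By the adjusted p-value 2 of these 5 were higher in control mice, against 16.2% of all genes (limma). So were 3 of the 6 stellate cell markers and 3 of the 5 Kupffer cell and macrophage markers tested. The sums of cholangiocyte markers, 3.19 to 4.25 FPKM and 3.72 to 6.30 FPKM, and of lymphocyte markers, 1.38 to 2.98 FPKM and 1.80 to 2.34 FPKM, overlapped between these groups. By the adjusted p-value 1 of the 2 cholangiocyte markers tested, the lymphocyte marker tested and the enterocyte marker tested were higher in control mice. The acinar marker tested was lower, against 19.1% of all genes (limma). In HYA-treated against control mice, 2 of the 6 stellate cell markers and 1 of the 2 cholangiocyte markers tested were lower by the adjusted p-value. Of all genes 1.23% were (limma). No tested marker of the other cell types passed it in that comparison. With values centred on the hepatocyte markers, an alternative chosen after seeing the data, the median of the members in control against ND-fed mice was -0.31 and that of all genes 0.63. Ces2a and Ces3b were then still past the thresholds, Ces1b was at -0.71, and Ces1f and Ces2e had positive values of 0.11 and 0.48. The part of these markers in the result was not tested otherwise.

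The plot of fold changes under 3 scalings sets these values side by side.

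**Figure D2:**
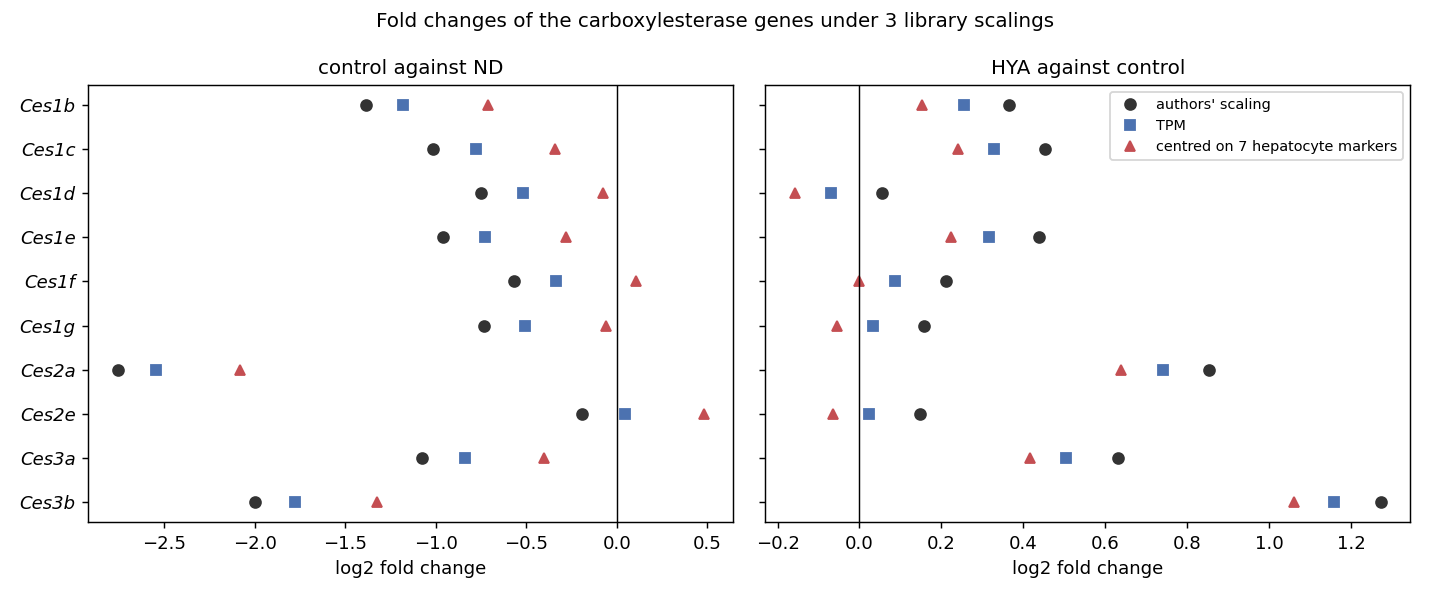
Log2 fold change (horizontal axes) of the 10 genes (rows) in control against ND-fed mice (left) and HYA-treated against control mice (right), with deposited FPKM values, values rescaled to TPM and values centred on hepatocyte markers. The points of a gene move sideways together, Ces2a and Ces3b keep the lowest values on the left, and Ces3b keeps the highest on the right.

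Administration of HYA was compared with the high-fat diet alone. All 10 mRNAs had a higher mean in HYA-treated than in control mice, from 105% of the control level for Ces1d to 239% for Ces3b. Ces3b was past both thresholds, 1 of 10 members, where 0.162% of all tested genes were past them upwards. By the adjusted p-value without a threshold on fold change it was Ces3b, Ces3a and Ces2a, 3 of 10, against 1.57% of all genes. The ranges did not overlap for Ces1c, Ces1e, Ces2a, Ces3a and Ces3b, 5 of 10, against 12.7% of all genes. As before, nothing is read from these counts. The median log2 fold change of the members was 0.40, beside 0.02 over all genes tested, and 0.29 beside -0.10 with TPM. The count past the thresholds was 0 without HYA-treated mouse 2 and 2 without control mouse 2, when Ces2a joined Ces3b. With only the HYA-treated and control mice in the fit, 0 of 10 passed the adjusted p-value, at the same fold changes.

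Ces3b had 127, 119.8 and 112 FPKM in the HYA-treated mice, all above the highest control mouse at 60.9 FPKM and all below the lowest ND-fed mouse at 194 FPKM. Its log2 fold change against control was 1.27 (95% interval 0.93 to 1.62). Ces3a had 611, 631 and 576 FPKM in the HYA-treated mice, again between the groups, with a log2 fold change of 0.63 ± 0.08. The ratio of Ces3b to Ces3a ran from 0.190 to 0.208 in HYA-treated mice, between the ranges of the control and ND-fed mice.

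Ces2a had 51.3, 59.8 and 68.5 FPKM in the HYA-treated mice, with a log2 fold change of 0.85 against control (95% interval 0.54 to 1.17). Despite this its level was 26.6% of that in ND-fed mice, the lowest share among the 10 genes. Ces2e had 112, 115 and 125 FPKM in the HYA-treated mice, a range that overlapped with those of the 3 other groups. The ratio of Ces2a to Ces2e ran from 0.457 to 0.546, above the control range and below the ND range.

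Among the Ces1 genes, Ces1c had 738, 814 and 781 FPKM in the HYA-treated mice, a log2 fold change of 0.45 ± 0.11 against control. Ces1e had 91.2, 95.9 and 85.2 FPKM, a log2 fold change of 0.44 ± 0.10. Both ranges lay above the highest control mouse and below the lowest ND-fed mouse. The other 4 genes of the class overlapped with the control mice. Ces1d, the triacylglycerol hydrolase, had 184, 238.5 and 301 FPKM in the HYA-treated mice, the widest relative spread of the 10 genes in that group, and its interval ran from -0.30 to 0.41. The log2 fold changes of Ces1b, Ces1f and Ces1g were 0.37 ± 0.19, 0.21 ± 0.09 and 0.16 ± 0.07. The signs of Ces1f, Ces1g, Ces2e and Ces1d depended on the scaling, since they ran from -0.16 to -0.002 once centred on the hepatocyte markers.

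HYA-treated mice remained below ND-fed mice. The members past the thresholds were Ces1b and Ces2a, 2 of 10 and both lower, against 0.614% of all genes. With the adjusted p-value alone, and likewise for ranges that did not overlap, it was every member but Ces2e, 9 of 10, against 7.85% and 19.3% of all genes. The median log2 fold change was -0.57. The HYA level was 48.3% of the ND level for Ces1b, 60.2% for Ces3b, 73.3% for Ces3a and 97.0% for Ces2e. In LA-treated against ND-fed mice Ces1b, Ces2a and Ces3b were past the thresholds, 3 of 10 and all lower, against 1.36% of all genes, with a median of -0.89. By the adjusted p-value it was 9 of 10, against 16.6%, and for ranges 10 of 10, against 26.5%. Both sets of values rest on the same ND-fed mice, and again nothing is read from the counts.

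The plot of fold changes with their intervals covers the comparisons of HYA-treated and of LA-treated with control mice as well.

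**Figure D3:**
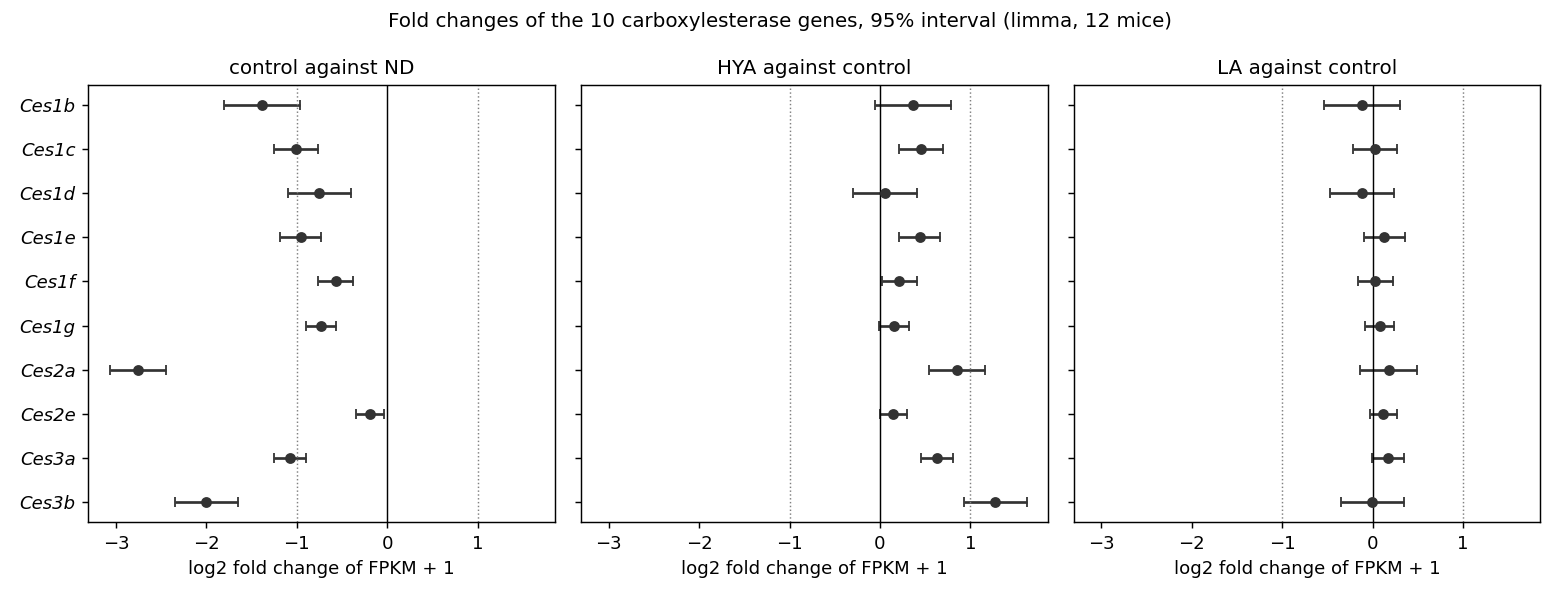
Log2 fold change of FPKM + 1 (horizontal axes) with its 95% interval from limma for the 10 genes (rows), 1 panel per comparison. Intervals in control against ND-fed mice all lie below 0. In HYA-treated against control mice those of Ces3b, Ces2a, Ces3a, Ces1c, Ces1e and Ces1f lie above 0, that of Ces3b the farthest. All intervals in LA-treated against control mice include 0.

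LA served as the comparison fatty acid. In LA-treated against control mice 0 of 10 members passed the thresholds or the adjusted p-value, where 0% of all genes did (limma, with 294 genes or 2.65% at an unadjusted p-value under 0.05, none of them a member). The log2 fold changes ran from -0.12 for Ces1b to 0.18 for Ces2a, and the median was 0.05. The interval for Ces3b ran from -0.35 to 0.34, which does not exclude a modest difference in either direction. The ranges did not overlap for Ces2e and Ces3a, 2 of 10, against 3.94% of all genes, and nothing is read from this count. Ces3a had 443, 446 and 429.5 FPKM in the LA-treated mice, each above the highest control mouse by a small margin. Ces3b had 46.9, 55.7 and 44.3 FPKM, within the control range.

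HYA carries a hydroxyl group where linoleic acid has a double bond that hydration removes, and both were given at the same dose for the same time. Ces3b was 2.42-fold higher with HYA than with LA on the log2(FPKM + 1) scale, the only member past both thresholds (1 of 10, against 0.0271% of all genes). Its log2 difference was 1.28 (95% interval 0.93 to 1.62). With the adjusted p-value alone Ces3a joined it, 2 of 10, against 0.235% of all genes, and its log2 difference was 0.46 ± 0.08. Ces2a had 34.0, 39.5 and 37.3 FPKM in the LA-treated mice and a log2 difference of 0.68 ± 0.14. The ranges did not overlap for Ces1b, Ces1c, Ces1e, Ces1f, Ces2a, Ces3a and Ces3b, 7 of 10, against 14.8% of all genes. The count past the thresholds was 0 without HYA-treated mouse 2 and without any of the 3 LA-treated mice, and 0 with no filter on low values. The interval included 0 for Ces2e (-0.12 to 0.18), Ces1g (-0.08 to 0.25), Ces1d (-0.177 to 0.527) and Ces1f (-0.012 to 0.375). These intervals are descriptions, since the members were chosen with their values known, and as before nothing is read from the counts. Ces2e and Ces1g turned negative with TPM. Control mice are shared by the comparisons of HYA and of LA with control, so the values of both are given side by side without a measure of their likeness.

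With the deposited FPKM values, the order of the group means began with ND and then HYA for each of the 10 genes. The HYA range overlapped that of the next group for Ces1b, Ces1d, Ces1g and Ces2e, and for Ces2e also that of ND. With TPM, HYA was higher than control for 9 members and than LA for 8. Centred on the hepatocyte markers, it was higher for 6 in each comparison. Control was lower than ND for 9 and 8 members under these scalings. The share of all genes with this order was not counted. The summed FPKM of the 10 genes was 3326, 3449 and 3395 in ND-fed mice, 1478, 1830 and 1688 in control mice, 2149, 2334 and 2305 in HYA-treated mice and 1637, 1796 and 1735 in LA-treated mice. The HYA-treated mice lay between the ND-fed mice and the 2 other groups, which overlapped. As a share of all FPKM in a mouse the sum was 0.808% for ND, 0.467% for control, 0.582% for HYA and 0.482% for LA. The make-up of the sum also differed between the groups. Ces3b gave 5.86% of it for ND, 2.97% for control, 5.30% for HYA and 2.84% for LA. Ces2a gave 6.65% in ND-fed mice and 1.97%, 2.64% and 2.14% in the control, HYA-treated and LA-treated mice. Ces2e took the opposite course, with 3.57% in ND-fed and 6.39% in control mice, while Ces1c gave between 33.5% and 34.4% in all 4 groups.

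**Figure D4:**
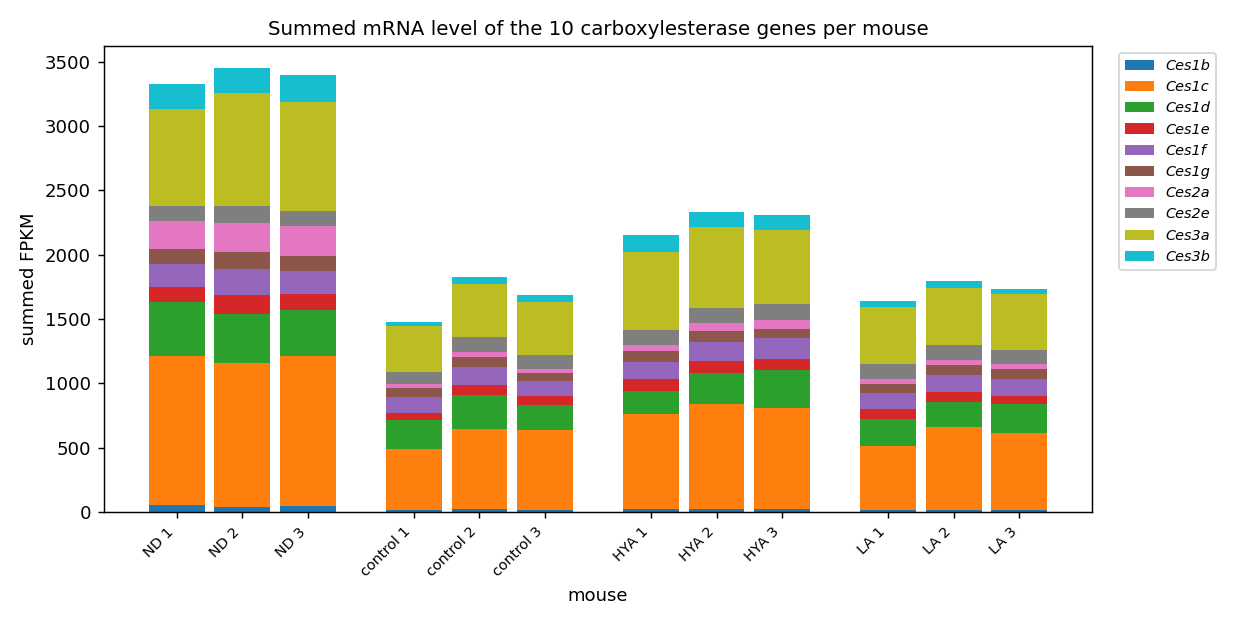
Summed FPKM of the 10 carboxylesterase genes (vertical axis, from 0) in each of the 12 mice (horizontal axis), stacked by gene. The ND-fed mice sum to between 3326 and 3449, the HYA-treated mice to between 2149 and 2334, and the control and LA-treated mice to between 1478 and 1830.

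Within groups, several members were low or high in the same mouse. Control mouse 1 had the lowest level of the 3 control mice for 8 of the 10 genes, and control mouse 2 the highest for 9 of 10. LA-treated mouse 2 was highest for 8 of 10 in its group. The share of all genes with such an order was not counted. The FPKM total over all genes was 342100, 368100 and 358100 in control mice 1, 2 and 3. In LA-treated mice 1, 2 and 3 it was 358700, 361500 and 352300. The summed hepatocyte markers were 29990 in control mouse 1, 34200 in control mouse 2 and 33860 in control mouse 3, so control mouse 1 was lowest there too. The part of this difference between mice in the results was not tested.

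Over the 12 mice the closest pattern among the members was that of Ces1e and Ces3a, with a root mean square difference of 0.105 between their mean-centred log2(FPKM + 1) values. Ces1f and Ces1g followed at 0.125, and Ces2a and Ces2e were the farthest apart at 1.04. Outside the family, the genes most like Ces2a were C8b, a complement component (0.157), Cyp2c29, a cytochrome P450 (0.18), and Gm12718 (0.227). Those most like Ces3b were Serpina3k and Serpina1c, both serine protease inhibitors (0.223 and 0.237), and Slc22a7, an organic anion transporter (0.235). Those most like Ces1b were Cps1 of the urea cycle (0.137), Gnmt, a glycine methyltransferase (0.157), and Afmid of tryptophan breakdown (0.163). Cps1 is also 1 of the 7 hepatocyte markers used for centring. Those most like Ces3a were Mlxipl, the carbohydrate-responsive transcription factor ChREBP (0.084), Gpld1, a phospholipase (0.089), and Gjb1, a gap junction protein (0.092). These likenesses are given as a description over mice that share their diets.

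Of the 10 Ces genes outside the set, 3 passed the filter on low values. Ces2c, an acylcarnitine hydrolase, had 24.97, 32.41 and 25.71 FPKM in ND-fed and 14.9, 20.3 and 11.5 FPKM in control mice. It fell by 0.82 on the log2 scale (SE 0.19, adjusted p = 0.00641, limma with Benjamini-Hochberg adjustment), and was at -0.14 once centred on the hepatocyte markers. In HYA-treated mice Ces2c had 13.8, 15.7 and 16.6 FPKM, with a log2 fold change of 0.01 against control (adjusted p = 0.984, limma). Ces2g had 16.6 FPKM on average over the 12 mice and a log2 fold change of -0.17 in control against ND-fed mice (adjusted p = 0.133, limma). The pseudogene Ces2d-ps had between 3.14 and 5.17 FPKM in 3 mice of different high-fat groups and at most 0.5 FPKM in the other 9. Of the windows of 100 bases in its transcript, 57% occur letter for letter in other genes, among them Ces2c and Gm8798. Whether reads of these genes were counted for Ces2d-ps was not tested. The other 7 did not reach a mean of 1 FPKM, and Ces5a was at 0 in every mouse.

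Among the other lipid and ester hydrolases of the list, 34 of 37 tested, more were higher than lower in control mice. In control against ND-fed mice 5 passed both thresholds, all higher, against 2.25% of all genes upwards. Abhd2, a monoacylglycerol hydrolase, rose by 1.75 on the log2 scale (adjusted p = 1.04e-06, limma). Pnpla3, a lipase of the lipid droplet, rose from 0.733 to 9.97 FPKM (adjusted p = 1.91e-05, limma). The others were the acyl-CoA thioesterases Acot2 (1.82, adjusted p = 6.44e-05), Acot4 (1.01, adjusted p = 0.0188) and Acot3 (1.72, adjusted p = 0.0208), from the same limma fit. With the adjusted p-value alone 12 of 34 were higher, against 16.2% of all genes, and 5 lower, against 19.1%, the median log2 fold change being 0.16 beside -0.04 over all genes. The 5 lower genes, named after their values were seen, were Aadac, Lipc, Pnpla6, Pon1 and Pon3. Pon3 turned from -0.22 to 0.01 with TPM, and Aadac, Pnpla6 and Pon3 turned positive once centred on the hepatocyte markers.

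Aadac, an esterase that, like several carboxylesterases, acts on triglycerides in the endoplasmic reticulum, had 314, 354 and 346 FPKM in ND-fed mice and 232, 274.5 and 235 FPKM in control mice. It fell by 0.45 on the log2 scale (adjusted p = 0.000884, limma), and was at 0.22 once centred on the hepatocyte markers. In HYA-treated mice it had 304.5, 320.5 and 323 FPKM, each above every control mouse, and was 0.36 higher on the log2 scale (adjusted p = 0.0357, limma). In HYA-treated against control mice 3 of the 34 hydrolases passed the adjusted p-value, against 2.8% of all genes, and none passed both thresholds (limma). Beside Aadac these were Lipc, hepatic lipase (0.49, adjusted p = 0.0292), and Abhd2 (-0.46, adjusted p = 0.0394), the last in the other direction. In HYA-treated against LA-treated mice, as in LA-treated against control mice, the count was 0, against 0.487% and 0% of all genes. At an unadjusted p-value under 0.05 there were 11 and 1 of these hydrolases, against 17.2% and 2.65% of all genes (limma).

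Gusb, the β-glucuronidase that Ces1e holds in the endoplasmic reticulum, had the opposite order of the groups to Ces1e in the comparisons with control mice. It had 7.23, 6.58 and 7.05 FPKM in ND-fed mice and 9.63, 10.5 and 10.4 FPKM in control mice, and rose by 0.49 on the log2 scale (adjusted p = 6.67e-05, limma). In HYA-treated mice it had 7.96, 7.48 and 7.73 FPKM, a log2 fold change of -0.36 against control (adjusted p = 0.0168, limma) and of -0.34 against LA-treated mice (adjusted p = 0.035, limma).

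Of 8 genes of VLDL assembly, the route by which several carboxylesterases feed secretion, 4 passed the adjusted p-value in control against ND-fed mice, where 35.3% of all genes did. Sar1b and P4hb were higher and Apob and Pdia3 lower, with 0 past both thresholds, against 3.88% of all genes. Apob turned to 0.06 with TPM, and Apob and Pdia3 were positive once centred on the hepatocyte markers. In HYA-treated against control mice 0 of the 8 passed the adjusted p-value, against 2.8% of all genes. Of the 8, 2 had an unadjusted p-value under 0.05, against 18.5% of all genes (limma). Of 11 transcription factors known to act on carboxylesterase genes, 3 passed the adjusted p-value in control against ND-fed mice, a share below the 35.3% of all genes. Nfe2l2 (NRF2) rose by 0.73 (adjusted p = 0.000247), Hnf4a fell by 0.54 (adjusted p = 0.000531) and Nr1h3 (LXRα) fell by 0.17 (adjusted p = 0.0433) on the log2 scale in control against ND-fed mice (limma). Nr1h3 turned to 0.06 with TPM, and Nr1h3 and Hnf4a to 0.51 and 0.13 once centred on the hepatocyte markers. Hnf4a is 1 of the 7 hepatocyte markers, so its centred value was set partly against itself. In HYA-treated against control mice 0 of the 11 passed the adjusted p-value, against 2.8% of all genes. Of the 11, 1 had an unadjusted p-value under 0.05, against 18.5% of all genes (limma). For Nr1i3 (CAR), a receptor for xenobiotics, the log2 fold change was -0.35 in control against ND-fed mice (adjusted p = 0.296) and 0.33 in HYA-treated against control mice (adjusted p = 0.515, limma).

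Flanking genes were picked by position after the values of the members were seen. They were the nearest tested protein-coding genes outside the spans from Ces1a to Ces5a and from Ces2a to Ces4a. Their distances ran from 20.6 kb (Cbfb) to 1352 kb (Fto). Gm45909, Gm45727 and Gm45724, which lie inside the spans, were not counted. Of the 12 flanking genes tested, 3 on each side of each span, 0 passed both thresholds in control against ND-fed mice, where 3.88% of all genes did. The adjusted p-value alone was passed by 4 of the 12, close to the 35.3% of all genes. Pdp2 fell by 0.38 and D230025D16Rik by 0.41 on the log2 scale, and Mmp2 rose by 0.80 and Lpcat2 by 0.37 (limma with Benjamini-Hochberg adjustment). Centred on the hepatocyte markers, Pdp2 and D230025D16Rik were at 0.30 and 0.26.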

How the data were processed

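Per the labels, fastp, HISAT2 2.0.5 and featureCounts 1.5.0-p3 were used with the build GRCm38, and the authors deposited a table with an FPKM value for each gene in each mouse. The annotation release, strand setting and handling of reads that map to several genes are not given in the sources used here, and the study names TPM as its unit, although the column totals differ. The coordinates of all 10 members equal those of GENCODE M21. The FPKM steps gave whole fragments for 100% of the values checked, the nonzero values with few fragments (tolerance 0.05). Larger values, which include most of those of the members, were not part of that check.

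The 11083 genes whose 12-mouse mean was 1 FPKM or more were fitted with limma 3.58.1 in R 4.3.3 (empirical Bayes with trend, two-sided) on log2(FPKM + 1), with all groups in 1 fit and Benjamini-Hochberg adjustment. Thresholds were an adjusted p-value of 0.05 and an absolute log2 fold change of 1. Fold changes on this scale understate those of low genes. The members and gene lists were chosen with earlier results of these data known. Named were the members, other tested Ces genes, Gusb, Aadac, list genes past the thresholds (at most 6 per list and comparison) and the 3 genes nearest to each of the 4 members with the widest difference in control against ND. The fit was tested on simulated data. Alternatives were TPM, median-ratio scaling, a pseudocount of 0.1, no filter, 2 groups per fit, a replicate block, voom on recovered fragments, the adjusted p-value alone, leaving out each mouse, and centring on hepatocyte markers. The labels give the samples as separate mice.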

Additional observations from a re-analysis of the deposited data

Results flagged for a closer look

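Among the listed genes outside the 10 members, the effect of HYA and the effect of LA, both against control mice, differed for Gusb by the test of the difference itself. The difference of the log2 fold changes was -0.34 (SE 0.05, adjusted p = 0.035, limma with Benjamini-Hochberg adjustment). Each HYA-treated mouse, at 7.48 to 7.96 FPKM, lay below each LA-treated mouse, at 9.89 to 10.1 FPKM.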

How the results depend on the processing

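With 3 mice a group, single mice decided several counts. Members past the thresholds in control against ND numbered 5, and 3 with TPM or voom, 2 centred on hepatocyte markers, 10 with the adjusted p-value alone and 4 to 6 with a mouse left out. In HYA against control the count was 1, and 0 with only the 2 groups fitted, 3 with the adjusted p-value alone and 0 to 2 with a mouse left out. In HYA against LA it was 1, and 0 with no filter, 2 with the adjusted p-value alone and 0 to 1 with a mouse left out. Hydrolases past the thresholds in control against ND numbered 5, and 13 centred on hepatocyte markers, 17 with the adjusted p-value alone and 3 to 7 with a mouse left out (3 without ND mouse 2 or 3 or control mouse 1 or 2), and in HYA against control 0, or 3 with the adjusted p-value alone. The median of the members with TPM, voom and centring was -0.752, -0.801 and -0.311 in control against ND, 0.286, 0.315 and 0.188 in HYA against control, and 0.252, 0.284 and 0.138 in HYA against LA. With a mouse left out it ran from -1.068 to -0.888, from 0.261 to 0.525 and from 0.331 to 0.407, and in LA against control from 0.023 to 0.15. The ratio of summed FPKM was 0.491 for control against ND (0.578 with TPM) and 1.31 for HYA against LA (1.21 with TPM). No member past the thresholds changed sign under any of these alternatives.

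Mice with the same number did not deviate together (18 pairs, correlations from -0.396 to 0.294, 3 over 0.1). With the replicate block, members past the thresholds stayed at 5, 1 and 1 in control against ND, HYA against control and HYA against LA, while members with an adjusted p-value under 0.05 went from 3 to 5 in HYA against control and from 2 to 4 in HYA against LA, and all genes past both thresholds from 34 to 41 and from 12 to 29.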

Other observations

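Among the Ces genes below the filter, Ces4a and Ces2b, named after their values were seen, had their lowest group mean in control mice. Ces4a had 1.10, 1.24 and 2.40 FPKM in ND-fed mice, 0.0191, 0.212 and 0.0397 FPKM in control mice, 0.297, 0.408 and 0.798 FPKM in HYA-treated mice and 0.116, 0.289 and 0.221 FPKM in LA-treated mice. Ces2b had 0.401, 0.499 and 0.310 FPKM in ND-fed mice and 0.0273, 0.0824 and 0.0142 FPKM in control mice, 0.121, 0.0809 and 0.107 FPKM in HYA-treated mice and 0.0551, 0.0550 and 0.0790 FPKM in LA-treated mice. A count of 3 fragments on a transcript of 2 kb corresponds to 0.0607 to 0.0944 FPKM in these libraries, so several of these values lie under it. Ces2d-ps had 4.33 FPKM in control mouse 1, 5.17 FPKM in HYA-treated mouse 1 and 3.14 FPKM in LA-treated mouse 2.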
